A study of Mus musculus with 32 samples.

Results

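The genes described here carry the names of the proteins of the cytosolic ribosome. They are the rows of the deposited expression table whose symbol has the form of a small-subunit protein (Rps), a large-subunit protein (Rpl), a stalk protein (Rplp) or Rpsa, and whose mean deposited log2 value reached 5 at some time point. Of 54233 rows, 82 had such a symbol and 78 reached that level. They comprised 30 small-subunit genes, 41 large-subunit genes, 3 stalk genes and 4 paralogues (Rpl10l, Rpl39l, Rps27l and Rps4l). GENCODE M21 gives Rps4l as a transcribed processed pseudogene and the others as protein-coding. Just below the threshold lay Rpl23a, with a highest mean value of 4.75, Rpl24 with 4.74, Rpl3l with 4.05 and Rpl32l with 3.90. Just above it lay Rpl29 with 7.07 and Rpl21 with 8.28. Ribosome genes whose symbols have another form, such as Rack1, Fau, Rps3a1 and Rpl22l1, were not members and are described separately.

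PolyA RNA was sequenced in bulk from KH2 mES cells (strain C57BL/6 in the labels), all of which carried a single-copy TRE:GATA6-DsRed2 transgene, so that Dox switches on GATA6 and drives cells towards primitive endoderm (PrE). There were 4 samples at each of 0, 2, 4, 8, 16, 24, 48 and 96 h, 32 in all. The 0 h cells were kept in 2i medium with LIF, the MEK inhibitor PD0325901 and the GSK3 inhibitor CHIR, without Dox. At 2, 4 and 8 h the cells had been in serum medium with LIF and Dox (1 µg/ml) throughout. At 16, 24, 48 and 96 h they had received Dox for 12 h and then serum medium without it. Medium and Dox thus changed together, and in every comparison with 0 h they cannot be told apart. The cells were not sorted, so each sample can hold cells that responded to GATA6 and cells that did not.

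A ribosome has a small subunit, which reads the mRNA, and a large subunit, which joins the amino acids. Each is an RNA core with many proteins, and the stalk of the large subunit recruits translation factors. The mRNAs of these proteins begin with a tract of pyrimidines (the 5′ TOP motif) through which mTORC1 controls their translation. A few ribosomal proteins have paralogues with restricted expression, and Rpl10l and Rpl39l are best known from the male germ line.

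Rpl10l and Rpl39l fell furthest of the 78 genes by 96 h, and Rps27l was the 1 gene called higher at 96 h against 48 h, so the coding sequence of each is shown beside that of the parent gene, 5′ to 3′ from the start codon, with the bases that differ within a pair in capitals (GENCODE M21 on GRCm38.p6). The pair of Rpl39 and Rpl39l is shown whole, at 156 bases, and the other pairs by their initial 160 bases.
Rpl39: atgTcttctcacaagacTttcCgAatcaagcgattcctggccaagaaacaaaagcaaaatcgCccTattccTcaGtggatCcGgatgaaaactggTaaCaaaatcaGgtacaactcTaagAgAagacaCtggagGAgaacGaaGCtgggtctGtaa
Rpl39l: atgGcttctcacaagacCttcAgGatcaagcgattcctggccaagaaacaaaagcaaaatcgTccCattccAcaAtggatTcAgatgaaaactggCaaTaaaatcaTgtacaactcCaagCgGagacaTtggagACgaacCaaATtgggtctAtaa
Rpl10: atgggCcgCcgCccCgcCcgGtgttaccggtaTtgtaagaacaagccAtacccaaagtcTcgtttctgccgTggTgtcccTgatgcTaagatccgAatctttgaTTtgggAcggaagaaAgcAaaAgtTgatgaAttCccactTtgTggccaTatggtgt
Rpl10l: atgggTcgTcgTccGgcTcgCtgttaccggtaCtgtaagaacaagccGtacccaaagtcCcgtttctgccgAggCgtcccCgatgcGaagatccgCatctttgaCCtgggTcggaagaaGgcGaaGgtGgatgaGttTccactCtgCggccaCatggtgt
Rps27: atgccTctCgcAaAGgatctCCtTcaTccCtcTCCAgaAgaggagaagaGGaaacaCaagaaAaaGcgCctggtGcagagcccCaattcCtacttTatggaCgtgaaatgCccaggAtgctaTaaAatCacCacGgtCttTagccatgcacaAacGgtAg
Rps27l: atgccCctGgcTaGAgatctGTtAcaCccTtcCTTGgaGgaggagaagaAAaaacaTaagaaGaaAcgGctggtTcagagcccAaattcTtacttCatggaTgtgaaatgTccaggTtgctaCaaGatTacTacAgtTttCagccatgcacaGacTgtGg

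Rpl39l (chr16:10170226-10174911, plus strand) and Rpl39 (chrX:37082520-37085402, minus strand) differed at 23 of 156 coding bases and were 85.3% identical, with a longest identical run of 38 bases. Rpl10l (chr12:66283379-66284401, minus strand) and Rpl10 (chrX:74270812-74273135, plus strand) differed at 98 of 645 bases (84.8% identical), with runs of at most 23 bases. Rps27l (chr9:66946086-66949516, plus strand) and Rps27 (chr3:90212522-90213651, minus strand) differed at 61 of 255 bases (76.1% identical), with runs of at most 11 bases. Reads were 50 bases long, so none lying within these coding sequences could match both genes of a pair without a mismatch.

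The samples held between 3190108 and 12301732 reads on genes (median 8870662.5). Normalized counts, which are counts divided by the size factor of each sample that the deposited values hold, summed over 8 stem cell markers to 36241 to 43144 at 0 h and 3616 to 4357 at 96 h. Those of 8 PrE markers summed to 625 to 899 at 0 h and 210770 to 294684 at 96 h. Markers of trophectoderm (5 genes), mesoderm (3) and fibroblasts (4) summed to at most 489 in any sample. Of these, Elf5 and Postn were at 0 in every 0 h sample, while Eomes had a 0 h mean of 263 and T of 235. The mesoderm sum ran from 41.6 to 425 between the 0 h samples. Replicates 1 and 2 stood apart from replicates 3 and 4 at 0 h, where 76 of the 78 ribosomal protein genes were higher in replicates 1 and 2, by a median of 0.34 on the log2 scale (-0.01 over all genes tested). At 96 h 35 of 78 were higher in them. The labels give no source for this split. For each tested comparison, the median over all 78 members is also given within each pair of replicates. Other medians, such as those against the 0 h mean and those of the subunits and the stalk, are over all samples together. The split was not examined for them. The study states that replicates were performed independently. The labels do not say what was repeated, and p-values measure the spread between these samples.

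The genes differed widely in level. Per kilobase of exon, mean normalized counts at 0 h had a median of 1929 over the 78 genes and ran from 81.2 for Rpl21 to 15922 for the stalk gene Rplp1. Rpl4, which lines the exit tunnel, followed Rplp1 at 14244 per kilobase, then Rpl8 at 9932 and Rps15 at 9347. At 96 h the median level per kilobase was 1272, with Rplp1 still highest at 11069.6 and Rpl10l lowest at 38.5. Rpl21 and Rpl29 each share 50-base stretches with 84 other genes. Reads that match several genes can be lost or split, so the level of a gene with such copies is uncertain.

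A smaller share of reads came from the ribosomal protein genes at 96 h than at any earlier time. At 0 h the share was 5.79%, 4.92%, 4.45% and 4.15% in replicates 1 to 4, a mean of 4.83% ± 0.716 (SD, n = 4). It was 4.18% ± 0.201 at 2 h, 3.98% ± 0.282 in the 4 h samples, 3.73% ± 0.226 at 8 h, 3.67% ± 0.106 in the 16 h samples, 3.61% ± 0.239 at 24 h and 3.74% ± 0.338 in the 48 h samples. At 96 h it was 2.74%, 2.74%, 2.59% and 2.76%, a mean of 2.71% ± 0.0801. Every 96 h sample was below every other sample of the series, of which the lowest was 3.38% at 48 h. In bulk RNA, fewer cells with a high level and less of these mRNAs per cell cannot be told apart.

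A share also depends on the reads that other genes take. Col4a1 took 0.000619% of reads at 0 h and 1.36% at 96 h, Sparc 0.0559% and 1.26%, and Lamc1 0.0782% and 1.01%, all of them genes of the basement membrane. With the 50 largest other genes left out of the total, the ribosomal protein genes took 5.30% at 0 h, 4.33% in the 48 h samples and 3.18% at 96 h, so the share in the 96 h samples was the lowest on this base too. The small subunit went from 2.15% ± 0.366 at 0 h to 1.14% ± 0.0316 at 96 h, and the large subunit from 2.30% ± 0.303 to 1.34% ± 0.0502. The stalk took 0.308% ± 0.0490 at 0 h, 0.205% ± 0.0286 in the 24 h samples, 0.272% ± 0.0108 at 48 h and 0.184% ± 0.0119 in the 96 h samples.

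**Figure D1:**
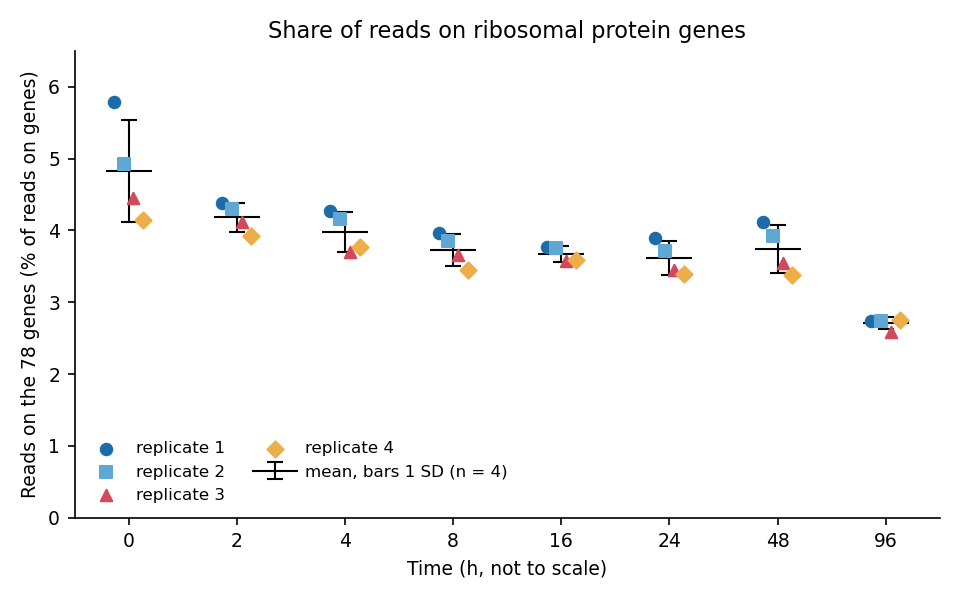
Percentage of reads on genes that came from the 78 ribosomal protein genes (y axis, from 0) at each time (x axis, h, not to scale), with a point per replicate and the mean and 1 SD (n = 4) as bars. The 0 h samples spread from 4.15% to 5.79%, and the 96 h samples, at 2.59% to 2.76%, lie under all others.

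Gene by gene, changes were tested with limma, two-sided, on log2(normalized count + 1), and called at FDR < 0.1 over the 15227 genes tested, which included all 78 members. All changes below are log2 differences on this scale. At 2 h against 0 h, 19 of the 78 genes were lower and 0 higher, where 22.6% of all genes tested were lower and 22.2% higher, so the share lower was near the background. The median change was -0.11 over the members and -0.03 over all genes. Within replicates 1 and 2 the members' median was -0.22 and within replicates 3 and 4 it was -0.00078. Without 0 h replicate 1, 7 genes were lower and 7 higher, and without 0 h replicate 4, 37 were lower. Of the 19, Rps4l was the 1 gene whose 2 h samples all lay below those of 0 h, beside 14.6% of all genes tested.

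From 2 to 24 h few ribosomal protein genes passed the test between neighbouring times, and all that did in the fit of all samples were lower. At 4 h against 2 h, 11 were lower (10.9% of all genes) and 0 higher (13.6%). At 8 h against 4 h, 3 genes were lower, Rps20 and Rpl10a among them (7.57%), and 0 were higher (9.51%). At 16 h against 8 h, Rps23 was the 1 gene lower (10.6%) and 0 were higher (9.44%). At 24 h against 16 h, 7 were lower (14.8%) and 0 higher (13.3%). In each of these comparisons, and at 2 h against 0 h, the number higher was also 0 at an unadjusted limma p under 0.05 and with limma-voom on whole reads. It was above 0 in some other settings. With a replicate block it was 4 at 2 h against 0 h and 1 at 16 h against 8 h, and in replicates 3 and 4 alone 11, 8 and 4 at 2 h against 0 h, 16 h against 8 h and 24 h against 16 h. In replicates 1 and 2 alone 2 were higher at the last of these steps. The block gave 27 genes lower at 4 h against 2 h and 12 at 8 h against 4 h. The members' medians in replicates 1 and 2 and in replicates 3 and 4 were -0.11 and -0.16 at 4 h against 2 h, -0.11 and -0.07 at 8 h against 4 h, -0.07 and 0.02 at 16 h against 8 h, with opposite signs, and -0.01 and -0.06 at 24 h against 16 h. Against the 0 h mean, the median over the members was -0.23 at 4 h, -0.32 in the 8 h samples, -0.36 at 16 h and -0.37 in the 24 h samples, where 77 of 78 means lay below 0 h.

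From 24 to 48 h, 23 genes were higher and 5 lower, beside 29.8% and 27.8% of all genes tested, so the share higher was near the background. The groups did not overlap in 21 of those higher and in all 5 lower, beside 23.2% and 20.3% of all genes tested that were called without overlap. Those lower were Rpl39l (-1.85), Rpl10l (-1.51), Rpl21 (-0.34), Rpl13a (-0.25) and Rpl30 (-0.20). The members' median was 0.13 in replicates 1 and 2 and 0.06 in replicates 3 and 4. From 48 to 96 h, 59 genes were lower and Rps27l was the 1 gene higher, beside 27.2% and 27.3% of all genes. The members' median there was -0.28, against 0.00 over all genes, and the groups did not overlap in 50 of the 59, beside 20.6% of all genes lower without overlap. Within replicates 1 and 2 the median was -0.35, and within replicates 3 and 4 it was -0.21.

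Comparisons of 2, 48 and 96 h with 0 h share the 0 h samples and are given side by side. At 48 h, 51 of 78 genes were lower and 1, Rpl10, was higher than at 0 h (37.3% and 36.1% of all genes). At 96 h, 75 were lower and 0 higher (38.5% and 38.0%), the latter also 0 at an unadjusted limma p under 0.05 and with limma-voom, and 1 in replicates 3 and 4 alone. The members' medians were -0.30 and -0.53, against -0.02 and -0.03 over all genes, and the groups did not overlap in 29 and 68 of the genes lower, beside 29.0% and 31.8% of all genes. Within the replicate pairs the median at 48 h was -0.39 in replicates 1 and 2 and -0.17 in replicates 3 and 4. At 96 h the median was -0.70 within replicates 1 and 2 and -0.38 within replicates 3 and 4. Between 48 h and 2 h, both in serum medium, 37 were lower and 0 higher (38.3% and 36.9%), again 0 at an unadjusted limma p under 0.05 and with limma-voom but 7 in replicates 3 and 4 alone, and the median was -0.20 (-0.19 in replicates 1 and 2 and -0.17 in replicates 3 and 4). Rpl10l and Rpl39l were the 2 members lower by at least 4-fold at 48 h and in the 96 h samples than at 0 h, beside 7.09% and 10.3% of all genes.

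Scaling samples to total reads shifted the median of all genes at 96 h against 0 h from -0.03 to -0.29. Relative to the all-gene median, the ribosomal protein genes differed by -0.50 with the size factors of the deposited values and by -0.51 with total reads. At 48 h against 0 h these differences were -0.27 and -0.28. A change of scaling shifts all genes of a sample alike, so these differences could hardly change and do not test the scaling. From 24 to 48 h, 18 genes were higher and 12 lower with total reads, and the members' median was +0.006, against -0.07 over all genes.

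**Figure D2:**
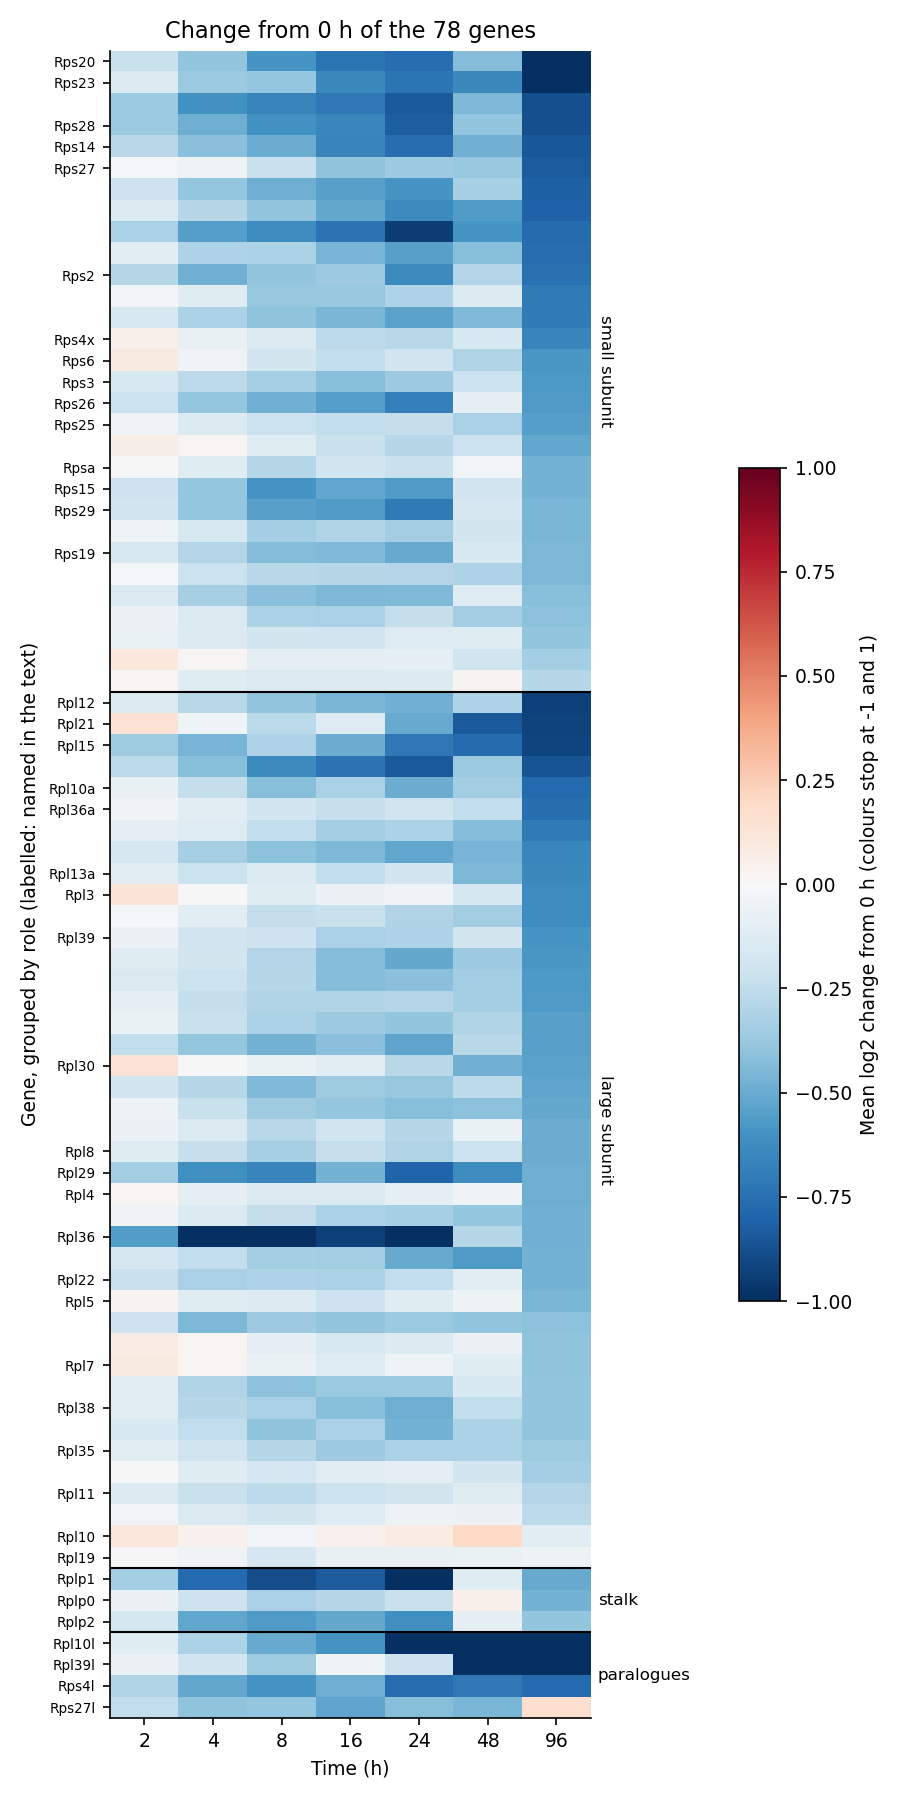
Mean log2 change from 0 h (colour, blue lower and red higher) of each of the 78 genes, in rows grouped by role and labelled for genes named in the text, at each later time (columns, h). The 96 h column is blue in 77 of 78 rows with Rps27l the exception, and Rpl10l and Rpl39l are the darkest rows at 48 h.

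All 30 small-subunit genes were lower at 96 h than at 0 h, with a median of -0.58 and the largest fall in Rps20 (-1.20). Rps20 (chr4:3831334-3835665, minus strand), a protein of the small-subunit head, had normalized counts of 10272, 8421, 7794 and 6767 at 0 h, 5030.1, 5013, 4711 and 4642 in the 24 h samples, 6441, 6241, 6038 and 5670 at 48 h and 3397, 3562, 3569.9 and 3769.7 in the 96 h samples. Its 96 h samples were below all others, and its 48 h samples were above those of 24 h. The change was -1.20 ± 0.07 (SE) at 96 h against 0 h (limma adjusted p = 3.6e-15), +0.33 at 48 h against 24 h and -0.77 at 96 h against 48 h.

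Rps23 (chr13:90922958-90924950, plus strand), which sits at the decoding centre, was at 2273, 1934, 1808 and 1739.5 at 0 h, at 1305, 1261, 1237 and 1139 in the 48 h samples and at 816, 819, 798 and 948 at 96 h. None of these groups overlapped. The change was -0.64 at 48 h (adjusted p = 3.2e-09) and -1.19 at 96 h (adjusted p = 2.0e-15, limma). It had also fallen at 4 h against 2 h (-0.23) and at 16 h against 8 h (-0.26).

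The small-subunit genes chosen for their roles were lower at 96 h without overlap. Rps14, of the platform, had 13438, 10942, 9110.2 and 8214 normalized counts at 0 h and 5615, 5517, 5551 and 6145 at 96 h, a change of -0.85 (adjusted p = 5.6e-09, limma). Rps2, near the mRNA entry, had 2414, 2140.1, 2134 and 1777 at the start against 1198, 1039, 1323 and 1513 at the end (-0.74). Among these genes the fall of Rps14 was the largest. Rps4x had 8911, 7007, 5993 and 5704 at 0 h and 4268, 4547, 4076 and 4366 at 96 h (-0.66). Rps3, of the mRNA entry channel, had 27924, 22521, 19114 and 17358 at the start against 14450.2, 13920.1, 14252 and 14698 at the end (-0.58).

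Rps6, the substrate of S6 kinase, had 3477, 2739, 2455 and 2295 normalized counts at 0 h and 1881, 1916, 1663 and 1798 at 96 h (-0.58, adjusted p = 9.6e-06, limma). Rps25, which some viral internal ribosome entry sites need, had 3758, 3190.4, 2866 and 2684 at the start against 2219.8, 2076, 1988 and 2169 at the end (-0.55). In both, 0 h replicates 1 and 2 were higher than replicates 3 and 4, and the 96 h samples lay close together. Rpsa had 4638, 4004, 3359 and 3322 at the start against 2784, 3011, 2467 and 2676 at the end (-0.48). Rps19, often mutated in Diamond-Blackfan anaemia, had 4362, 3258, 3053 and 3118 at the start against 2465, 2124, 2654 and 2796 at the end (-0.45).

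From 24 to 48 h, 13 of 30 small-subunit genes were higher, beside 29.8% of all genes tested, with a median over the 30 of +0.16. The largest of these rises were those of Rps26 (+0.59), Rps29 (+0.54) and Rps28 (+0.43). Rps19 had 2662, 2255, 2337 and 2403 at 24 h and 3104, 3053, 3073 and 3062 at 48 h (+0.35), without overlap, while Rps6 (-0.10) and Rps25 (-0.09) did not pass the test. From 48 to 96 h, 27 of 30 were lower (median -0.31).

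Of 41 large-subunit genes, 39 were lower at 96 h than at 0 h (median -0.50), and Rpl10 and Rpl19 were not called. Rpl12 (chr2:32961559-32965345, plus strand), at the base of the stalk, had 10778, 8816, 8180.1 and 7134 normalized counts at 0 h, 7881, 7334, 6662 and 6162 in the 48 h samples and 4828, 4867, 4139 and 4326 at 96 h. The 96 h samples were below all those of 0 and 48 h. It changed by -0.93 at 96 h against 0 h (adjusted p = 8.9e-10) and by -0.62 at 96 h against 48 h (limma).

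Rpl15 and Rpl21 had most of their difference from 0 h already at 48 h. Rpl15 had 1546, 1246, 1143 and 1035 at 0 h, 729, 761, 721 and 673 in the 48 h samples and 741, 633, 624 and 609 at 96 h. The difference from 0 h was -0.77 at 48 h and -0.92 at 96 h, and 96 h against 48 h did not pass the test (-0.15, adjusted p = 0.29, limma). Its 48 and 96 h samples overlapped. Rpl21 had 262, 268, 224 and 253 at 16 h, 223, 183, 179 and 193 in the 24 h samples and 152, 143, 156 and 162 at 48 h. It fell at 24 h against 16 h (-0.37) and at 48 h against 24 h (-0.34), and was -0.92 from 0 h at 96 h. Rpl12 overlaps Lrsam1, Rpl15 overlaps Nkiras1 and Rps14 overlaps Ndst1 on the opposite strand. Other genes named here also overlap a gene on the opposite strand, among them Rpl3, Rpl5, Rpl10a, Rps2, Rps25 and Rps28. Whether counting used the strand is not given in the sources used here.

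Rpl19 and Rpl10 had the smallest changes from 0 h of the 78 genes. Rpl10, which joins the large subunit late and is X-linked, had 4128, 3485, 3276 and 3279 normalized counts at 0 h, 4093, 4055, 4088 and 3922 in the 48 h samples and 3348, 3288, 3196 and 3278 at 96 h. It was higher at 48 h than in the 0 h samples (+0.20, adjusted p = 0.018), although 0 h replicate 1 lay above all 48 h samples, and was not called at 96 h (-0.11, adjusted p = 0.19, limma). With total reads the change was +0.06 at 48 h, not called, and -0.37 at 96 h, called. Rpl19 had 3289, 2841, 2433 and 2348 at 0 h and 2830, 2683, 2443 and 2514 at 96 h (-0.05, not called), and 57.4% of its 50-base stretches occur in other genes.

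Rpl10a had 3386, 2939.7, 2745 and 2727 normalized counts at 0 h and 1732, 1738, 1723 and 1675 at 96 h, a change of -0.77 ± 0.06 (SE, adjusted p = 2.8e-13, limma). Rpl36a had 3763, 2994, 2532 and 2206 at the start against 1739, 1715, 1592 and 1623 at the end (-0.76). Both were lower in every 96 h sample than in any 0 h sample. Rpl3, at the peptidyl transferase centre, had 9624, 8862, 8041 and 7967 at the start against 6192, 5979, 5062 and 5088 at the end (-0.63). Rpl4 had 33649, 28926, 26944 and 24829 at the start against 20939, 20619.9, 19041 and 20369 at the end (-0.49).

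Rpl5 and Rpl11 form a particle with 5S rRNA that can bind and inhibit Mdm2. Rpl5 had 5559.6, 4642, 4065 and 3811 normalized counts at 0 h and 3434, 3357, 2966 and 3279 at 96 h (-0.46), without overlap. Rpl11 had 4755, 3959, 3438 and 2986 at the start against 3083, 3019, 2872 and 3207 at the end (-0.29), and its groups overlapped. Of the other genes chosen for their roles, Rpl22 changed by -0.47, Rpl7 by -0.40 and Rpl38, which is known for the translation of Hox mRNAs, by -0.40, each without overlap.

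The 3 stalk genes rose together at 48 h against 24 h (median +0.51) and fell together at 96 h against 48 h (median -0.38). Rplp1 (chr9:61913284-61914542, minus strand) had 9611, 9166, 7235 and 5768 normalized counts at 0 h, 4006, 5276, 3101 and 3046 in the 24 h samples, 6960.3, 6250.1, 8340.1 and 7203 at 48 h and 4763, 5572, 5346 and 6413 in the 96 h samples. Its 48 h samples were all above those of 24 h and within the range of 0 h. The rise was +0.93 ± 0.16 (SE, adjusted p = 1.6e-05, limma), being +0.52 within replicates 1 and 2 and +1.33 within replicates 3 and 4.

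Rplp2 had 4017, 4501, 3681 and 3295 normalized counts at 2 h, 3023, 3094, 2729 and 3289 in the 4 h samples, 3106, 3398, 2435 and 2518 at 24 h and 4115, 3823, 4305 and 3972 in the 48 h samples. It fell at 4 h against 2 h (-0.35) and rose at 48 h against 24 h (+0.51, adjusted p = 0.00026, limma), without overlap in either. Rplp0 had 9786, 9666, 8712 and 8563 at 24 h, 11222, 10740.4, 11195 and 11324 in the 48 h samples (+0.28) and 7401, 7427, 7762 and 8290.0 at 96 h (-0.53 from 48 h). At 48 h against 0 h the stalk genes did not pass the test (-0.12 for Rplp1, -0.10 for Rplp2 and +0.05 for Rplp0). There the replicates went opposite ways, with -0.51, -0.35 and -0.13 in replicates 1 and 2 and +0.26, +0.15 and +0.23 in replicates 3 and 4. At 96 h against 0 h all 3 were lower (-0.50, -0.39 and -0.47), with overlap for Rplp1.

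Rpl36 (chr17:56613416-56614243, plus strand), a large-subunit protein, had the largest rise of the 78 genes from 24 to 48 h. Its normalized counts were 1238, 1243, 1028 and 767 at 0 h, 548, 521, 398 and 578 in the 4 h samples and 491, 584, 323 and 319 at 24 h. They were 825, 844, 941 and 847 at 48 h and 653, 675, 826 and 884 at 96 h. Each sample of 24 h was below each of 48 h, and the 96 h samples overlapped those of 0 h. It fell at 2 h against 0 h (-0.56), at 4 h against 2 h (-0.50) and at 24 h against 16 h (-0.40). It rose at 48 h against 24 h by +1.06 ± 0.17 (SE, adjusted p = 6.3e-06, limma), being +0.64 within replicates 1 and 2 and +1.47 within replicates 3 and 4.

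The longest transcripts of Rpl36, Rplp1 and Rplp2 hold 60.8%, 57.3% and 55.0% G and C, beside a median of 51.0% over the 78 genes and 49.7% over 15216 tested genes. Across genes, which are not independent and share the same libraries, GC content and the change at 48 h against 24 h had a Spearman's rho of 0.22 over the tested genes and 0.22 over 74 members other than paralogues. At 2 h against 0 h it was -0.25 and -0.36. The part of GC content in these changes was not tested. Other genes hold 81.1% of the 50-base stretches of Rpl36 and 60.0% of those of Rplp1, so both counts are uncertain.

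**Figure D3:**
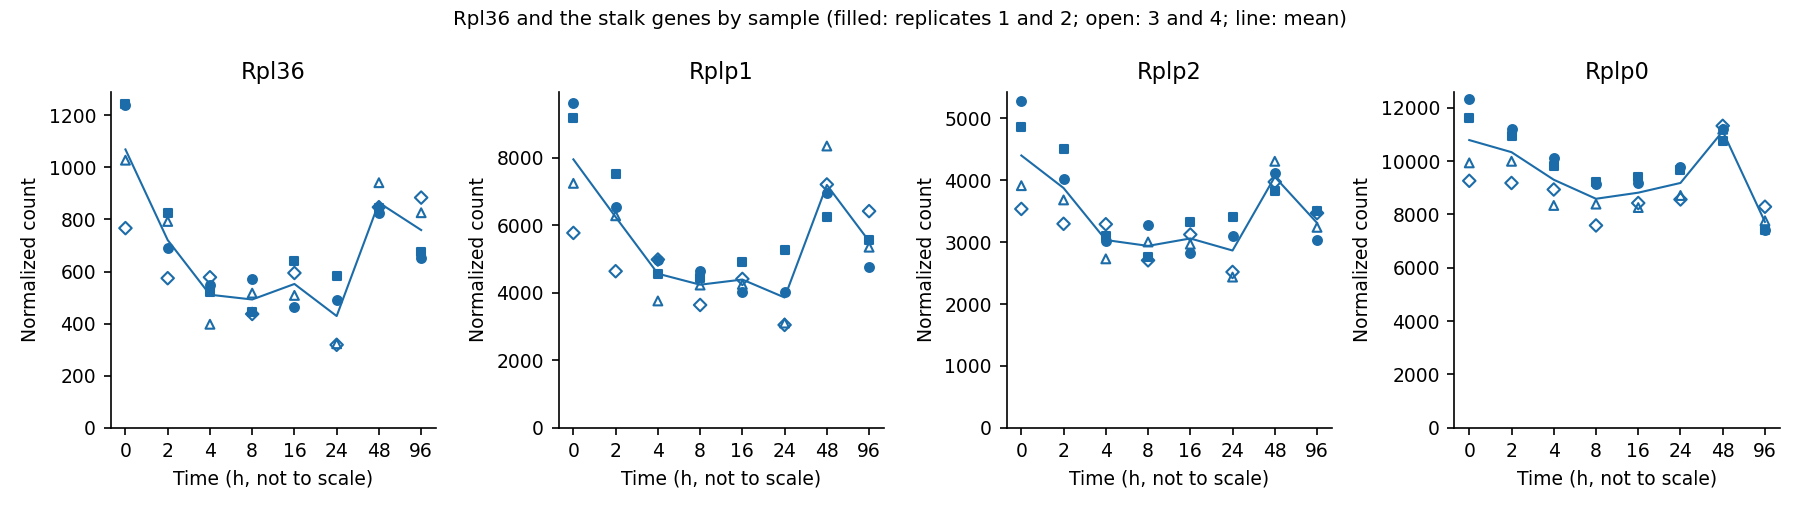
Normalized counts (y axis, from 0) of Rpl36, Rplp1, Rplp2 and Rplp0 in every sample at each time (x axis, h, not to scale), with replicates 1 and 2 filled, 3 and 4 open, and a line through the means. In each panel the 48 h samples lie above those of 24 h, for Rpl36 at 825 to 941 against 319 to 584.

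The paralogues are described with their parents. Rpl10l had 527, 501, 718 and 727 normalized counts at 0 h, 343, 339.7, 461 and 488 in the 16 h samples, 166, 191, 229 and 234 at 24 h, 67.8, 64.1, 72.1 and 79.5 in the 48 h samples and 34.0, 26.3, 54.0 and 43.5 at 96 h. From 16 h on, each group lay wholly below the one before. It was not called at 2 h against 0 h (-0.12), and changed by -0.98 at 24 h against 16 h, -1.51 at 48 h against 24 h and -0.87 at 96 h against 48 h. Against 0 h the change was -3.09 ± 0.19 (SE) at 48 h and -3.96 ± 0.19 at 96 h (adjusted p = 8.7e-18, limma).

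Rpl39l had 348, 319, 526 and 427 normalized counts at 0 h, 279, 263, 463 and 416 in the 24 h samples, 58.4, 64.1, 151 and 142 at 48 h and 36.1, 32.6, 75.3 and 76.6 in the 96 h samples. The 24 h samples overlapped those of 0 h and were all above those of 48 h, and replicates 3 and 4 were higher than replicates 1 and 2 at each of these times. It changed by -1.85 ± 0.31 (SE) at 48 h against 24 h (adjusted p = 1.2e-05, limma), and was -2.05 at 48 h and -2.93 at 96 h from 0 h. Its parent Rpl39 had 3542, 2945, 2603 and 2227 at 0 h and 1806, 1952, 1774 and 1866 at 96 h (-0.59).

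Rps27l, known in other cells as a target of p53, had 2257, 2045, 1863 and 1573 normalized counts at 0 h, 1377, 1181, 1600.1 and 1450 in the 48 h samples and 1853, 2043, 2305 and 2491 at 96 h. Its 96 h samples were all above those of 48 h. It fell at 48 h against 0 h (-0.46, with overlap) and rose at 96 h against 48 h (+0.63 ± 0.10 SE, adjusted p = 4.8e-06, limma). At 96 h against 0 h it was not called (+0.17, adjusted p = 0.12, limma), being -0.14 within replicates 1 and 2 and +0.48 within replicates 3 and 4. Without 0 h replicate 1 it was +0.25 and called, and so was it without 0 h replicate 2 (+0.20) and without 96 h replicate 1 (+0.24). With total reads it was -0.09 and not called. Rps27 had 5157, 4225, 3577 and 3203 at 0 h and 2254, 2252, 2123 and 2329.7 at 96 h (-0.83).

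Rps4l (chr6:148354656-148355598, plus strand), annotated as a transcribed processed pseudogene and related in name to Rps4x, had 2251, 2065, 2113 and 1872 normalized counts at 0 h, 1668, 1807, 1801 and 1483 in the 2 h samples, 1108, 1112, 1509 and 1364 at 48 h and 1143, 1206, 1177 and 1308 in the 96 h samples. All later samples given here were below those of 0 h. It changed by -0.30 at 2 h (adjusted p = 0.0090), -0.71 in the 48 h samples and -0.78 at 96 h (adjusted p = 5.2e-09, limma). It overlaps Tmtc1 on the opposite strand.

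A ratio of paralogue to parent within a sample does not depend on the scaling of samples. The mean log2 ratio of Rpl10l to Rpl10 was -2.53 at 0 h, -5.82 in the 48 h samples and -6.39 at 96 h, and that of Rpl39l to Rpl39 was -2.81, -4.68 and -5.15. For Rps27l to Rps27 it was -1.05, -1.13 and -0.05. Per kilobase, Rps27l made up 38.2% ± 1.70 (SD, n = 4) of its pair at 0 h and 55.2% ± 3.32 at 96 h. Rpl10l made up 26.0% ± 5.42 and 2.36% ± 0.739, Rpl39l 20.2% ± 5.94 and 4.89% ± 2.12, and Rps4l 34.6% ± 3.25 and 32.6% ± 1.30.

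Exact permutation tests of these ratios against 0 h (two-sided, 4 samples against 4) gave p = 0.0286, the smallest the design allows, for Rpl10l and Rpl39l at 48 and 96 h and for Rps27l at 96 h. Adjusted over 16 such tests of 8 pairs, the exact permutation p was 0.0508 for each. The change in ratio at 96 h was -3.86 for Rpl10l, -2.34 for Rpl39l and +1.00 for Rps27l, and it had the same sign within each pair of replicates. For Rps4l it was -0.57 at 48 h (exact permutation p = 0.0571) and -0.12 at 96 h (exact permutation p = 0.343).

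**Figure D4:**
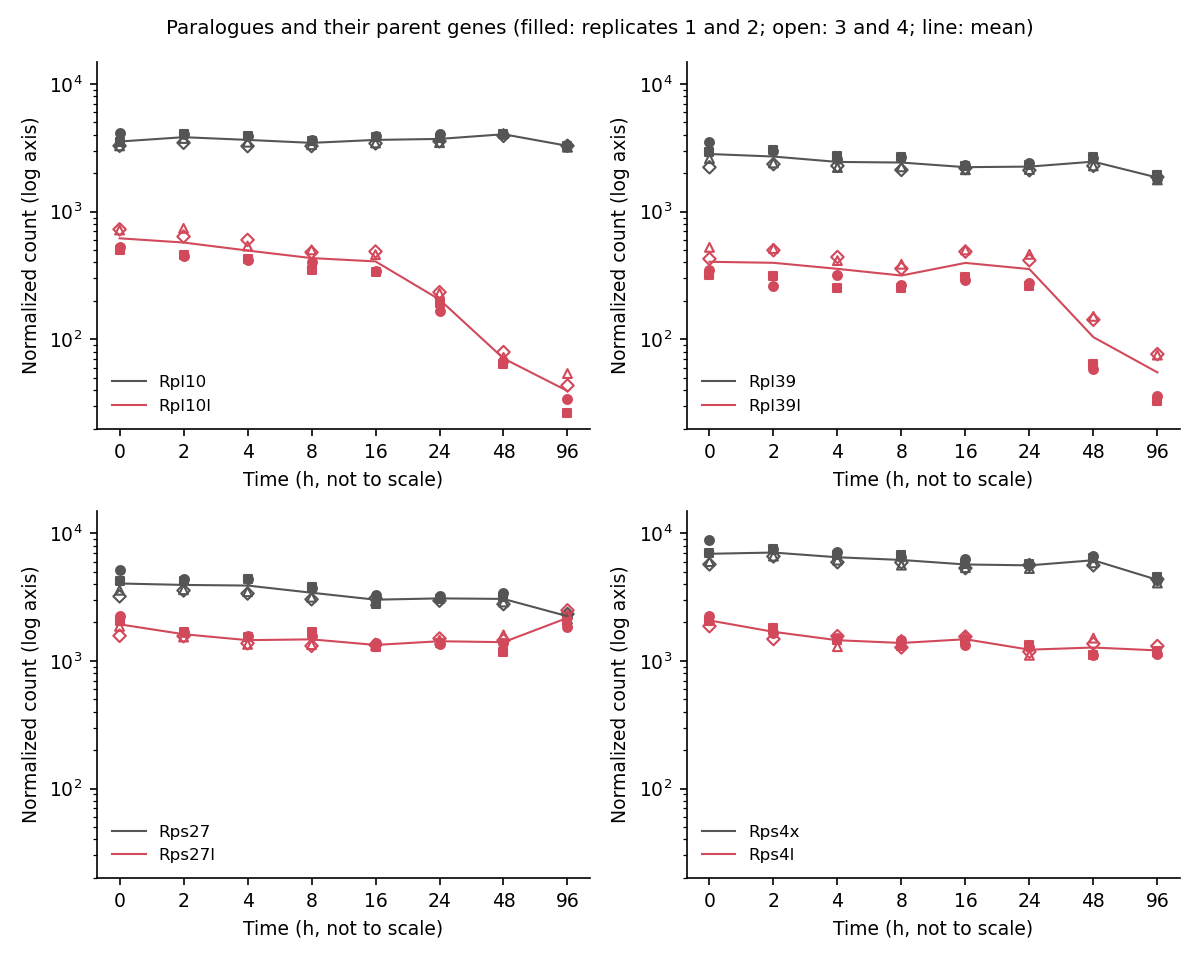
Normalized counts (y axis, log scale) of Rpl10l, Rpl39l, Rps27l and Rps4l (red) and their parents (grey) in every sample at each time (x axis, h, not to scale), with replicates 1 and 2 filled, 3 and 4 open, and lines through the means. Rpl10l and Rpl39l end far below their parents, and Rps27l at 96 h, at 1853 to 2491, reaches the level of Rps27.

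Of 8 tested rows for ribosome genes whose symbols were not of the form used, 7 were lower at 96 h than at 0 h (median -0.52). Rack1, a scaffold on the small-subunit head, changed by -0.47, Rps3a1 by -0.58, Fau, which encodes the S30 fusion protein, by -0.43, Rpl7l1 by -0.46 and Rpl36al by -0.83. Rpl22l1, the paralogue of Rpl22, had 1740.5, 1424, 1204 and 1158 at 0 h, 751, 742, 507 and 466 in the 48 h samples and 405, 390.2, 254 and 276 at 96 h. It changed by -1.18 and -2.07, and its log2 ratio to Rpl22 by -1.06 and -1.59 (exact permutation p = 0.0286, adjusted 0.0508).

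Near-identical copies make reads of these genes hard to place. In 34 of the 78 genes at least 25% of the 50-base stretches occur in another gene, up to 84.0% in Rpl35. At 96 h against 0 h, 32 of these 34 were lower (median -0.51), as were 43 of the other 44 (median -0.55), beside 38.5% of all genes tested. From 24 to 48 h, 10 of the 34 and 13 of the 44 were higher, both near the 29.8% of all genes tested. Rps20 shares 7.26% of its stretches and Rpl39l none.

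Promoter windows from RefSeq (GRCm38.p6, 250 bases before to 50 after the start) matched 58 of the 78 symbols, with 69 windows of 32851 in all. They are described because the genes moved together by 96 h. The ETS motif CCGGAA, on either strand, was in 49.3% of the member windows and 14.9% of all windows, and the SP1 motif GGGCGG in 60.9% and 35.7%. The YY1 motif GATGGC was in 24.6% and 14.1%, the E-box CACGTG in 11.6% and 7.15%, the TATA motif TATAAA in 8.70% and 13.6% and the GATA motif AGATAA in 4.35% and 11.2%. A pyrimidine start (the letters CTTTC, the letters CTTTT, the letters CTCTT or the letters CTTCC on the transcribed strand, from 10 bases before to 20 after the start) was in 40.6% and 14.9%. A match is a run of letters and no sign of binding.

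Stretches from 70 bases before to 30 after the start are shown for Rps23 and Rpl12, which fell far, for Rpl10, which was not called at 96 h, and for Rpl10l and Rpl39l, with ETS, SP1 and pyrimidine start letters in capitals. They lie at chr13:90923052-90923151, chr2:32961642-32961741, chrX:74270746-74270845 and chr16:10170158-10170257 on the plus strand (Rps23, Rpl12, Rpl10 and Rpl39l) and chr12:66284372-66284471 on the minus strand (Rpl10l).
Rps23: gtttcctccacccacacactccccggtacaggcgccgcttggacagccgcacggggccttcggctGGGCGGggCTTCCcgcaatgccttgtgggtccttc
Rpl12: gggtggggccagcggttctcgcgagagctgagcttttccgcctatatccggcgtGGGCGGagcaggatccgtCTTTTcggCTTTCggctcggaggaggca
Rpl10: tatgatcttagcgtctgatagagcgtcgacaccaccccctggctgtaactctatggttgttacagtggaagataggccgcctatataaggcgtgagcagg
Rpl10l: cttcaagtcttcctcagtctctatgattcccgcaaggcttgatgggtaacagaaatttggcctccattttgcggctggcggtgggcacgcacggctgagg
Rpl39l: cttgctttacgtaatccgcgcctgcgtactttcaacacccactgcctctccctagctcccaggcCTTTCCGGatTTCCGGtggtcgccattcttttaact

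Rps23 and Rpl12 hold SP1 and pyrimidine start letters in these stretches, and Rpl39l holds ETS and pyrimidine start letters that overlap. Rpl10 and Rpl10l, with the smallest and the largest change of the 5 at 96 h (-0.11 and -3.96), hold none of them here.

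Lists of genes that build and use ribosomes are given by counts at the same threshold, against the same background. At 48 h against 24 h, 27.8% of all genes tested were lower and 29.8% higher. At 96 h against 48 h these shares were 27.2% and 27.3%. Against 0 h they were 37.3% and 36.1% at 48 h and 38.5% and 38.0% at 96 h. Of 103 ribosome biogenesis factors, 86 were lower and 4 (Zfp622, Aamp, Taf1c and Tsr3) higher at 48 h against 24 h (median -0.55), where the median of the ribosomal protein genes was +0.09. From 48 to 96 h, 70 were higher and 4 (Dkc1, Aamp, Sdad1 and Ubtf) lower (median +0.33), where the ribosomal protein genes had -0.28. The medians thus had opposite signs at both steps. With total reads, however, the median of the ribosomal protein genes at 48 h against 24 h was only +0.006. At 48 h against 0 h, 83 were lower and 3 higher, and at 96 h 56 and 11. Mdn1, an ATPase that removes assembly factors, went from a mean of 3041 to 767 normalized counts at 48 h (-1.98), and Rrp12 from 923 to 334 (-1.51). The 3 higher were Zfp622 (+0.83), Las1l (+0.24) and Ddx47 (+0.16).

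Of 36 translation initiation factors, 26 were lower and 1 (Eif4e3) higher at 48 h against 24 h (median -0.27). From 48 to 96 h, 25 were higher and 3 (Eif2s2, Eif4a2 and Eif3k) lower (median +0.25). At 48 h against 0 h, 22 were lower, with Eif2b5 (-1.27) and Eif1ax (-1.19) the furthest. The 4 higher were Eif1b (+0.84), Eif4g3 (+0.68), Eif4h (+0.21) and Eif4e3, which had a mean of 0.976 normalized counts at 0 h and 14.1 at 48 h.

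Of 19 translation factors and other genes with 5′ TOP mRNAs, 14 were lower and 2 (Eif2s3x and Eef2) higher at 96 h against 0 h (median -0.25). At 48 h 11 were lower, with Nap1l1 (-0.95) and Gas5 (-0.68) the furthest, and 4 higher, namely Eef2 (+0.54), Eif4b (+0.30), Tpt1 (+0.19) and Eif3h (+0.14). Eef2 moves the ribosome along the mRNA. Of 81 mitochondrial ribosomal protein genes, 38 were lower and 6 higher at 48 h against 24 h (median -0.19), and 7 lower and 41 higher at 96 h against 48 h (median +0.22). Against 0 h, at 48 h, Mrps34 (-1.18, from a mean of 9.70 to 5.13 normalized counts) and Mrps24 (-0.93) fell furthest and Mrpl23 (+1.55) and Mrps18a (+0.85) rose most. They took 0.589% ± 0.0592 of reads at 0 h, 0.423% ± 0.0236 in the 48 h samples and 0.433% ± 0.0113 at 96 h.

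Of 29 genes of mTORC1 and TOP mRNA control, 14 were lower and 10 higher at 48 h against 0 h, beside 37.3% and 36.1% of all genes. At 96 h, 13 were lower and 9 higher, beside 38.5% and 38.0%. Rragb (-3.66) and Rragd (-3.06), Rag GTPases that bring mTORC1 to the lysosome, fell furthest at 48 h, and Castor2 (+3.46) and Rps6ka1 (+1.47) rose most. Of 20 p53 target genes, 16 were higher and 2 (Pmaip1 and Sesn1) lower at 96 h against 48 h (median +0.75). Beside them were 27.3% and 27.2% of all genes, and Rps27l rose at this step too. At 48 h against 24 h, 10 were higher and 5 (Perp, Tigar, Zmat3, Sesn1 and Aen) lower (median +0.40), beside 29.8% and 27.8%. Rps27l was then at -0.43 from 0 h in the 24 h samples and -0.46 at 48 h. A part of p53 in the change of Rps27l was not tested. At 48 h against 0 h, 7 of the 20 p53 target genes were higher and 9 lower, beside 36.1% and 37.3% of all genes. Cdkn1a (-1.96) and Perp (-1.75) fell furthest there, and Pmaip1 (+2.25) and Bbc3 (+0.76) rose most. The mTORC1 and p53 lists share 2 genes. Of 16 ribosome recycling and quality control genes, 8 were lower and 5 higher at 48 h against 0 h, beside 37.3% and 36.1% of all genes. Usp10 (-0.97) and Gtpbp1 (-0.95) fell furthest, and the 5 higher were Gtpbp2 (+0.92), Ascc3 (+0.90), Ascc2 (+0.47), Ltn1 (+0.38) and Trip4 (+0.19).

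**Figure D5:**
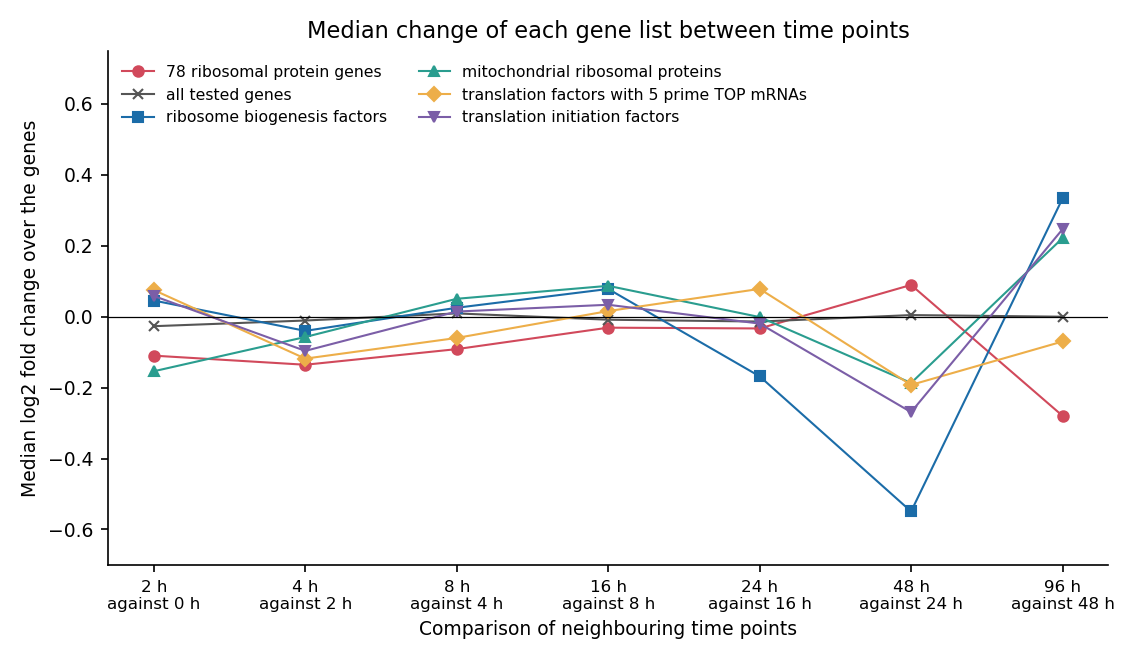
Median log2 change (y axis) between neighbouring time points (x axis) over the 78 ribosomal protein genes, 4 other lists and all tested genes. At 48 h against 24 h the ribosomal protein genes lie at +0.09 and the biogenesis factors at -0.55, and at 96 h against 48 h they lie at -0.28 and +0.33.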

How the data were processed

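PolyA RNA of 32 samples (8 time points, 4 samples each) was sequenced with single-end reads of 50 bases. Per the labels and the study's methods, the authors used FastQC 0.11.8, cutadapt 2.7, HISAT2 2.1.0 on GRCm38.p6 and featureCounts (Subread 1.6.4), and deposited 1 table of log2 values made with the variance-stabilizing transformation of DESeq2. The lowest deposited log2 value, 1.58, is that of a gene without reads. The transformation was inverted to normalized counts and reads, and 100% of values came out whole (tolerance 1e-06, largest distance 3.86e-09). Of the rows, 29140 had no symbol, and 29046 of these were named from the reference table. Coordinates are those of GENCODE M21.

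A gene was tested if its normalized count reached 10 in 4 or more samples. The test was limma 3.58.1 in R 4.3.3, in a single fit of all 32 samples with a trended variance, on log2(normalized count + 1). P-values were adjusted by the Benjamini-Hochberg method over 15227 genes. On this scale the fold change of a weakly expressed gene comes out too small. Ratios of paralogue to parent were tested by exact permutation. The stretches shared between genes, GC content and motifs were computed with Python 3.11.15, numpy 2.4.6, pandas 2.3.3 and scipy 1.17.1, and figures with matplotlib 3.10.9.

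The members and gene lists were chosen with earlier results of these data known, and the tests of paralogue ratios, shared stretches and GC content after the values had been seen. Genes were named by role (ribosomal proteins of known function and every paralogue), as the 5 largest non-overlapping rises and falls of the members at 2, 48 and 96 h against 0 h and the 2 largest in other comparisons, when past 4-fold, as the 2 largest changes of each other list at 48 h against 0 h, and wherever a count was 5 or fewer, apart from some genes that are counted but not reported here by name. Other members are named as examples of a count. On simulated data for 48 h against 0 h (15227 genes), limma called 100 of 100 genes changed by 1 and 100 of 100 changed by 2 on the log2 scale, and 0.113% of unchanged genes. The simulated counts had the same spread in every gene and no difference between replicate pairs. Only well-expressed genes were changed, and most changes of the members were smaller. The simulation thus checks the code and gives no error rates for these data. Depth ranged from 3190108 to 12301732 reads on genes, and PCR copies were not marked, so counting precision covers counting error only. The alternatives comprised other pseudocounts, filters, scalings (TMM and total reads), limma-voom on the whole reads, a replicate block, the compared times alone, each pair of replicates alone and leaving out each sample.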

Additional observations from a re-analysis of the deposited data

Results flagged for a closer look

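In 88 groups of 4 samples, the sample at either end was compared with its nearest neighbour by Dixon's criterion, which chance passes in about 1 in 20 groups, and 3 groups held a sample far from the others. The share of reads from the ribosomal protein genes at 96 h was 2.59% in replicate 3, below the other 96 h samples. Rps20 at 4 h had 6024 normalized counts in replicate 3, below the others. Rps23 at 96 h had 948 normalized counts in replicate 4, above the others.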

How the results depend on the processing

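Of 540 counts of called members under the alternatives, 448 stayed within 1.5 times the reported count and 92 did not. Leaving out samples in turn gave 72 to 75 genes lower and 0 to 1 higher at 96 h against 0 h, 42 to 65 and 0 to 1 at 48 h against 0 h (0 higher without replicate 3), 47 to 61 and 1 at 96 h against 48 h, 4 to 7 and 20 to 28 at 48 h against 24 h, and 31 to 41 and 0 to 2 at 48 h against 2 h. At the early steps it gave 5 to 37 lower and 0 to 7 higher at 2 h against 0 h, 0 to 13 lower at 4 h against 2 h, 0 to 3 lower at 8 h against 4 h, 0 to 2 lower at 16 h against 8 h and 2 to 7 lower at 24 h against 16 h, with 0 higher at the last 4. At 2 h against 0 h, 7 were lower without 0 h replicate 1, 37 without 0 h replicate 4, 12 without 2 h replicate 4, 5 without replicate 1 at both times and 8 without replicate 2. At 4 h against 2 h, 0 were lower without replicate 2, 1 without replicate 3 and 3 without 2 h replicate 2 or 4 h replicate 3, and 6 without 2 h replicate 1, 2 h replicate 3 or 4 h replicate 2. At 24 h against 16 h, 2 were lower without replicate 3 and 4 without 16 h replicate 3.

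A replicate block gave 4 higher at 2 h against 0 h, 27 lower at 4 h against 2 h, 12 lower at 8 h against 4 h and 1 higher and 2 lower at 16 h against 8 h. A block by replicate pair gave 3, 27, 12, 1 and 2. Samples with the same number correlated by 0.196 on average, others of the same pair (1 and 2, or 3 and 4) also by 0.196, and samples of different pairs by -0.196. Samples of a pair thus deviated together across times, and 15 of 32 lay nearest their own number, so the number adds nothing seen here beyond the pair. No other count moved by over 1.5 times under the block. With total reads, 47 were lower at 2 h against 0 h, 3 at 4 h against 2 h and 12 at 48 h against 24 h, and 0 were higher at 48 h against 0 h. With the 2 compared times fitted alone, 7 were lower at 2 h against 0 h, 18 at 4 h against 2 h, 3 at 16 h against 8 h and 11 at 24 h against 16 h, and 1 was higher at 48 h against 2 h. Without a filter on low counts, 7 were lower at 4 h against 2 h, 1 at 8 h against 4 h and 4 at 24 h against 16 h. TMM gave 1 lower at 8 h against 4 h and limma-voom 2 lower at 16 h against 8 h. At FDR < 0.05, 6, 1 and 4 were lower at 4 h against 2 h, 8 h against 4 h and 24 h against 16 h. The cause of these differences was not tested.

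A minimum change of 0.5 left 43 lower at 96 h and 10 lower and 0 higher at 48 h against 0 h, 9 lower at 96 h against 48 h, 5 higher and 2 lower at 48 h against 24 h and 5 lower at 48 h against 2 h, and 1, 0, 0, 0 and 1 lower at the steps from 2 h against 0 h to 24 h against 16 h. In replicates 1 and 2 alone, 46 were lower at 2 h against 0 h, 11 at 8 h against 4 h and 14 at 16 h against 8 h, and 2 were higher at 24 h against 16 h, 36 at 48 h against 24 h, 0 at 48 h against 0 h and 1 at 48 h against 2 h. In replicates 3 and 4 alone, 11 were higher and 11 lower at 2 h against 0 h, 60 lower at 4 h against 2 h, 15 lower at 8 h against 4 h, 8 higher and 3 lower at 16 h against 8 h, 4 higher and 21 lower at 24 h against 16 h and 17 lower at 48 h against 24 h. There, 2 were higher at 96 h against 48 h, 5 at 48 h against 0 h, 1 at 96 h against 0 h and 7 at 48 h against 2 h. Sign changed for Rplp0 (-0.13 in replicates 1 and 2), Rplp1 (+0.26 in replicates 3 and 4) and Rplp2 (+0.15 in replicates 3 and 4) at 48 h against 0 h, and for Rps27l (-0.14 in replicates 1 and 2) at 96 h against 0 h, none of them called in all samples together.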
